A study of Mus musculus with 12 samples.

Results

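The B cell and plasma cell genes described here are 36 genes listed by name, with earlier results of these data known. They cover surface proteins and signalling proteins of B cells, transcription factors of the lineage, genes of the germinal centre, and genes of antibody-secreting plasma cells. Of the 36, 30 had a probe in the table analysed, and 27 of 10967 genes tested passed the filter on dim probes, which asked that the detection p-value (the chance of such a signal from background) be under 0.05 on 4 or more of the 12 arrays. Pax5, Prdm1 and Rgs13 had probes below this filter. Cd79a, Cd72, Bank1, Ikzf3, Ighg and Igh-6 were not analysed here.

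RNA from 12 ileum tumours of the FVB/N strain (age 3 to 4 months) was hybridised to Illumina bead arrays, 1 sample per array. All carried APCmin, the truncating allele of the tumour suppressor gene Apc that gives mice intestinal adenomas. Arrays 1 to 6 are labelled FVBN/APCmin and arrays 7 to 12 iPGC-1β/APCmin, the study's name for mice with added PGC-1β, a coactivator that drives mitochondrial genes, in the intestine. The promoter and the construct are not given in the sources used here, nor is it stated that each tumour came from its own animal, so p-values measure the spread between these samples. Ppargc1b, which encodes PGC-1β, did not mark the groups, with 7.86 ± 0.44 on iPGC-1β/APCmin arrays against 8.41 ± 0.65 on the others (log2, SD, n = 6 each; limma adjusted p = 0.296). Whether its probe reads the added gene is not known here, and directions below follow the labels.

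B cells recognise antigen through a membrane immunoglobulin coupled to the signalling chains Cd79a and Cd79b. In the ileum they gather in the follicles of Peyer's patches and of smaller lymphoid clusters in the wall. Within a follicle, germinal centres form where B cells mutate and switch their antibody genes under Bcl6, and those that leave as plasma cells mostly secrete immunoglobulin A (IgA), joined into dimers by the J chain and carried across the epithelium by the receptor Pigr. A tumour sample of the ileum can hold such lymphoid tissue beside the adenoma. In whole tissue, fewer cells of a type and less RNA per cell cannot be told apart.

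Tumours labelled iPGC-1β/APCmin had lower signal for B cell genes in each of their arrays except array 7, and tumours labelled FVBN/APCmin had high signal in each except array 6. A negative difference below means a lower log2 intensity in iPGC-1β/APCmin, tested with limma and adjusted over all genes tested (Benjamini-Hochberg). Fcmr, a receptor for immunoglobulin M, and Dok3, an adaptor that dampens antigen receptor signals, fell past an adjusted p of 0.05. These were 2 of 27 genes, where 3.45% of all genes passed (1.23% lower and 2.22% higher). At an unadjusted p below 0.05 there were 23 of the 27, where 23.3% of all genes passed. The 27 differences ran from -5.45 to 0.11 with a median of -2.47, against a median of -0.01 over all genes, and 26 were below 0 (51.4% of all genes were). The sizes depend on how background is handled: the median was -1.35 with no background correction and -1.27 in the authors' normalized table, and 19 and 21 of the 27 differences were over 1.5 times smaller there. The groups overlapped for all 27 genes, whereas 2.82% of all genes separated them. Members seen mainly in the high group pass a filter on detection more easily: 6 of the 27 were detected on at most 1 iPGC-1β/APCmin array, so the count and the median describe the genes measured and support nothing further.

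**Figure D1:**
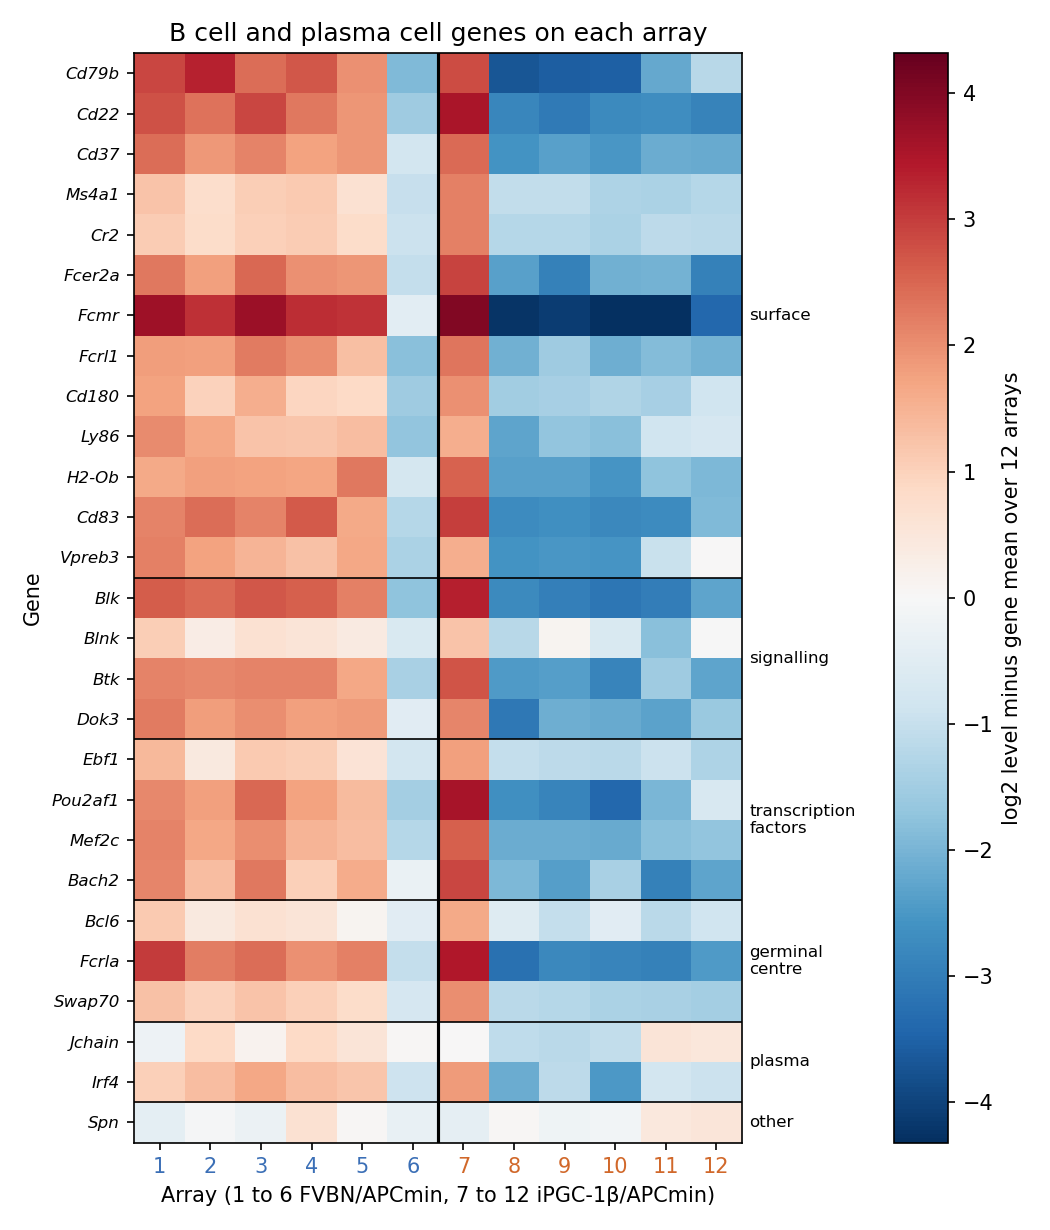
Colour gives the log2 level of each of the 27 tested genes (rows, by role) on each array (columns), minus the gene's mean over the 12 arrays; the vertical line parts the FVBN/APCmin arrays 1 to 6 from the iPGC-1β/APCmin arrays 7 to 12. Array 7 is red and array 6 pale to blue in most rows, and the rows of Jchain and Spn do not share the pattern.

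Arrays 6 and 7 stood apart from their groups before any single gene is read. The mean centred log2 level over the 27 genes ran from 1.38 to 1.83 over arrays 1 to 5, and from -2.11 to -1.46 over arrays 8 to 12. It was -1.02 on array 6, labelled FVBN/APCmin, and 2.29 on array 7, labelled iPGC-1β/APCmin. Array 7 was the highest of the 12 arrays for 21 of the 27 genes (12.3% of all genes), and array 6 was below each of arrays 1 to 5 for 25 of them (26.1% of all genes). Array 6 was still above each of arrays 8 to 12 for 16 of the 27. The share over all genes is not given for this count, so it is a description only. Probes detected numbered 13947 on array 6 and 13813 on array 7, within the range of 12858 to 14445 over all arrays, while array 6 had the lowest median raw intensity, 139.3 in a range up to 170.5. On array 6 the level of 6 smooth muscle markers was 1.42 and that of 10 epithelial markers 0.44, and on array 7 they were -0.98 and -0.45. Their part in the result was not tested.

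Each result was therefore also computed without these arrays. Without array 7, 24 of the 27 genes passed (16.6% of all genes did), and without array 6, 18 passed (6.63%). Without both, 25 passed (19.9%), with a median difference of -3.75. Array quality weights, which give less weight to arrays far from their group, let 25 pass (21.9% of all genes). Leaving out any other single array left 0 of the 27 past the adjusted threshold, with 18 to 21 at an unadjusted p below 0.05 (limma). Arrays 6 and 7 were picked because earlier results had shown them apart in lymphocyte genes, so fits without both are a description and their calls carry no support of their own.

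**Figure D2:**
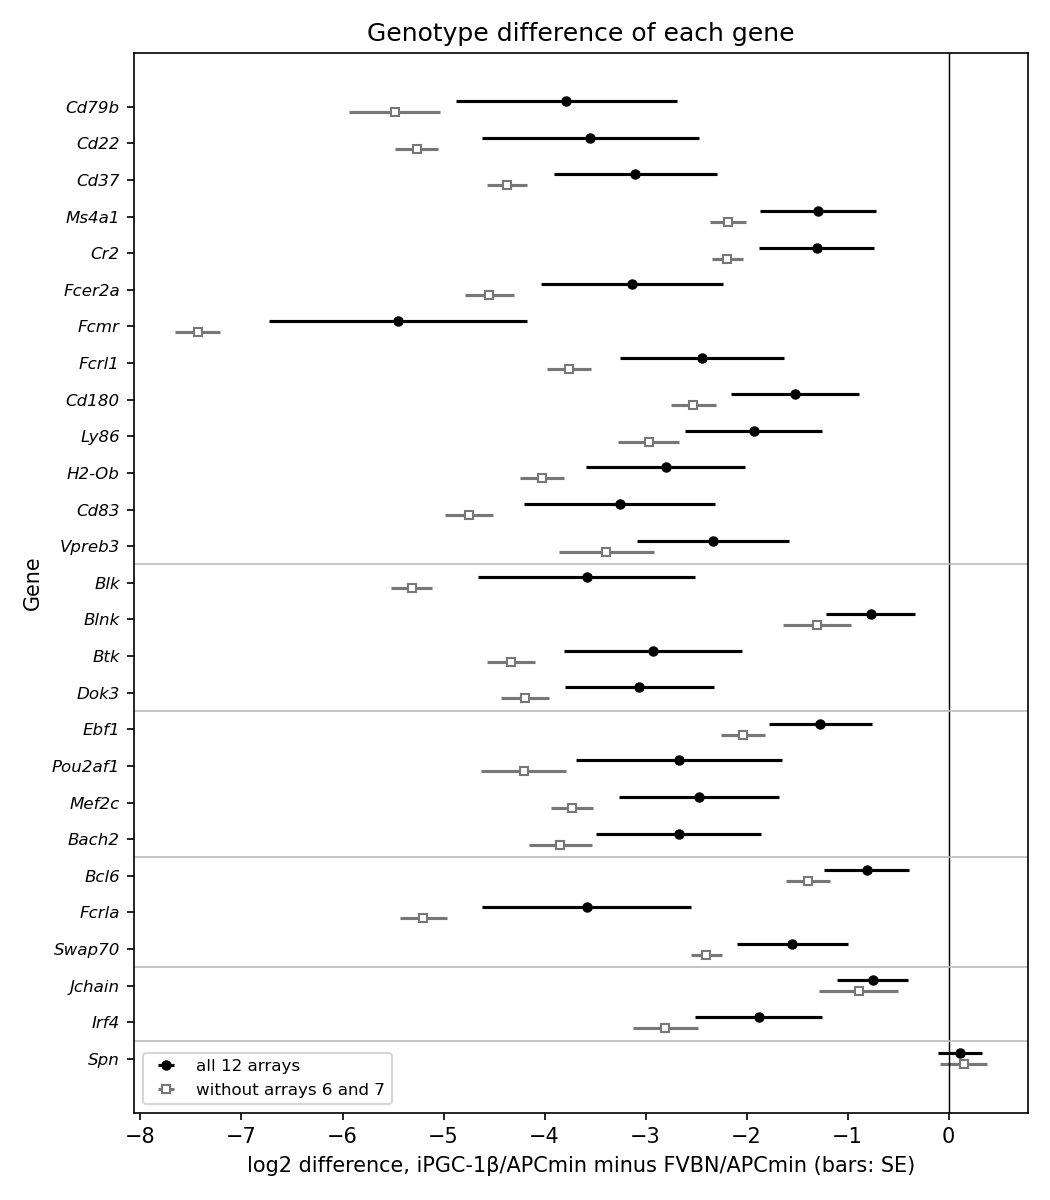
Points give the log2 difference of each tested gene, iPGC-1β/APCmin minus FVBN/APCmin, with the standard error; filled circles use all 12 arrays and open squares leave out arrays 6 and 7. The differences of Fcmr lie furthest left, at -5.45 and -7.43, while Jchain (-0.75 and -0.89) and Spn (0.11 and 0.15) hardly move between the fits.

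The surface proteins of follicular B cells were the class with the most measured genes, 13 of 15 listed. All 13 had differences below 0 (median -2.80), 1 passed, and all 13 had an unadjusted p below 0.05. On the FVBN/APCmin arrays the log2 level of Fcmr (Faim3 in the file) ran from 8.56 on array 6 through a median of 12.19 to 12.72. On the iPGC-1β/APCmin arrays it ran from 4.70 through a median of 4.85 to 13.02 on array 7. The groups thus overlapped through array 7, and Fcmr was above its detection limit on only 2 of the 6 iPGC-1β/APCmin arrays. Fcmr fell by 5.45 (SE 1.28, adjusted p = 0.0363, limma; mean 11.74 ± 1.58 to 6.29 ± 3.32, SD, n = 6 each). With 4 undetected values its size moved with the background setting: it was -4.58 with an offset of 50 and -3.68 with no background correction (adjusted p = 0.0578, limma), and -3.56 in the authors' normalized table (adjusted p = 0.0596, limma). Among fits that left out an array, its call was kept without array 6 or array 7 and was lost without any other array, up to an adjusted p of 0.0884.

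Cd79b, the signalling chain that pairs with Cd79a under the antigen receptor, was among the brightest of these probes. Its log2 level went from 7.57 (array 6) through a median of 12.04 to 12.79 in FVBN/APCmin, and from 5.79 through 6.62 to 12.29 (array 7) in iPGC-1β/APCmin. The raw intensity of the same probe was 7452.5 on array 2 and 159.3 on array 8. The difference was -3.78 (SE 1.10, adjusted p = 0.0663, limma) and did not pass, with 2 of 12 fits that left out an array passing, those without array 6 or 7.

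Cd37, a tetraspanin of mature B cells, went from 6.38 (array 6) through 9.06 to 9.58 in FVBN/APCmin and from 4.58 through 4.90 to 9.63 (array 7) in iPGC-1β/APCmin, a difference of -3.10 just short of the threshold (SE 0.81, adjusted p = 0.0504, limma). It was detected on 1 of 6 iPGC-1β/APCmin arrays, and without background correction its difference was -1.57 (adjusted p = 0.0832, limma). Fcer2a, the low-affinity IgE receptor CD23 that marks follicular B cells, went from 6.49 (array 6) through 9.46 to 10.01 and from 4.60 through 5.31 to 10.43 (array 7), a difference of -3.13 (adjusted p = 0.0650, limma; -1.69 without background correction). H2-Ob encodes a chain of H2-O, which restrains peptide loading onto class II molecules in B cells. It went from 6.28 (array 6) through 8.77 to 9.33 and from 4.51 through 4.89 to 9.58 (array 7), a difference of -2.80 (adjusted p = 0.0611, limma; -1.35 without background correction, with 1 of 6 iPGC-1β/APCmin arrays detected). Cd83, which appears on activated B cells and dendritic cells, went from 7.16 (array 6) through 10.56 to 11.04 and from 5.62 through 5.73 to 11.38 (array 7), a difference of -3.26 (adjusted p = 0.0663, limma; -2.14 without background correction). In each of these genes the 5 other FVBN/APCmin arrays lay above the 5 other iPGC-1β/APCmin arrays, as they did for 25 of the 27 members (8.55% of all genes).

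The other 7 surface genes had differences from -3.55 to -1.29, none past the threshold. They were the inhibitory sialic acid receptor gene Cd22 (-3.55, or -1.91 without background correction), the Fc receptor-like gene Fcrl1 (-2.44), Vpreb3 (-2.33), which is named for its likeness to the surrogate light chain of B cell precursors, the complement receptor gene Cr2 (-1.31) and Ms4a1 (-1.29), which encodes CD20. Cd180, a Toll-like receptor relative of B cells, and Ly86, which encodes its partner MD-1, had differences of -1.52 and -1.93. Cr2, Ms4a1 and Cd180 are dim probes, each detected on 5 FVBN/APCmin arrays and on 1 iPGC-1β/APCmin array, so the background limits their differences. Ly86 was detected on all 12 arrays.

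**Figure D3:**
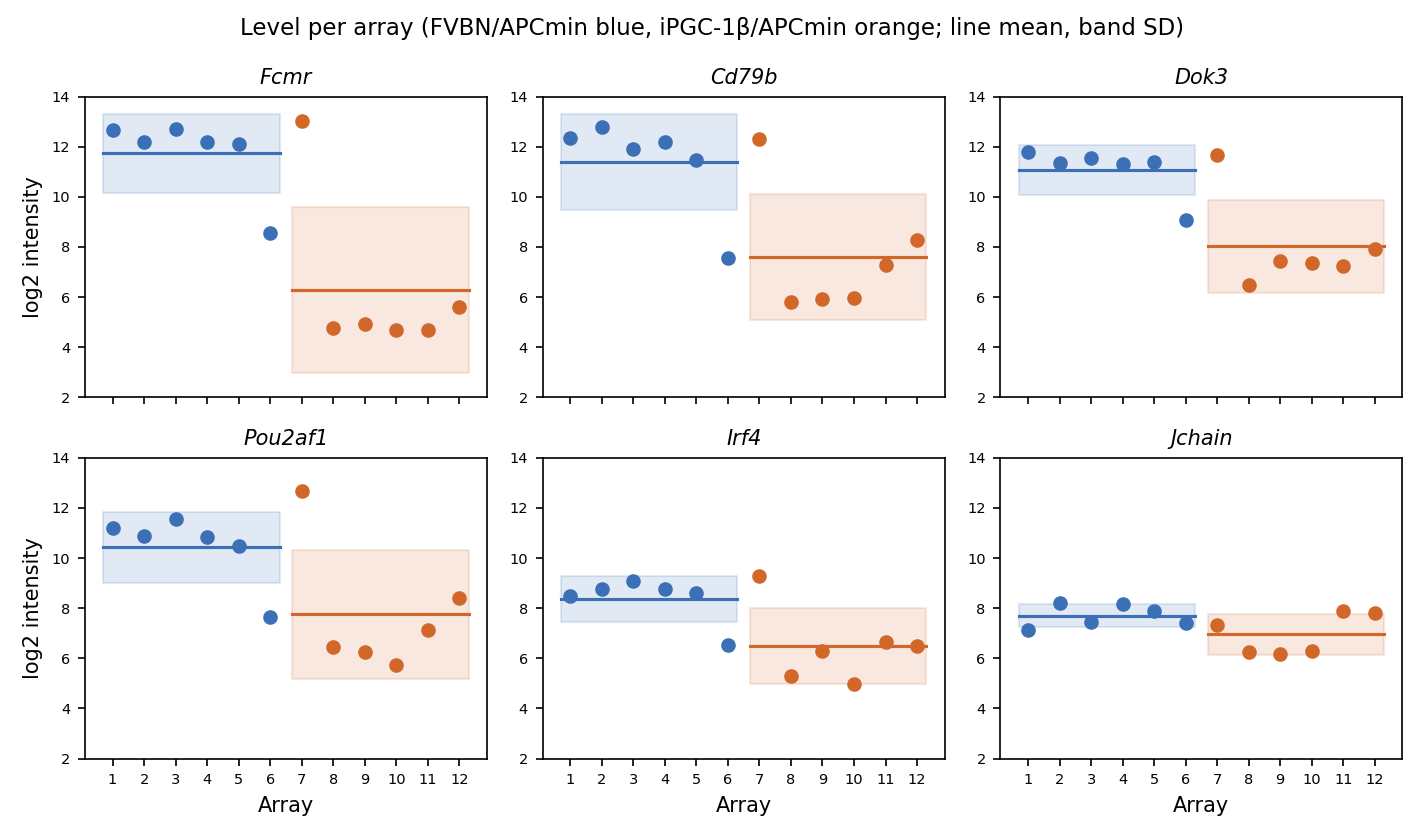
Each panel gives the log2 intensity of a gene on arrays 1 to 12, with the group mean as a line and the SD as a band. In the panels of Fcmr, Cd79b, Dok3, Pou2af1 and Irf4, array 6 is the lowest blue point and array 7 the highest orange point; in that of Jchain, arrays 11 and 12 are the highest orange points.

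Proteins that carry the signal inward from the antigen receptor were measured for 4 of 5 listed genes. Dok3 went from 9.06 (array 6) through 11.37 to 11.79 in FVBN/APCmin and from 6.47 through 7.40 to 11.66 (array 7) in iPGC-1β/APCmin, and was detected on all 12 arrays. Dok3 fell by 3.06 (SE 0.74, adjusted p = 0.0393, limma; mean 11.08 ± 1.00 to 8.02 ± 1.85, SD, n = 6 each). Like that of Fcmr, its call was kept without array 6 or array 7 and lost without any other array, up to an adjusted p of 0.0933. Without background correction its difference was -2.46 and its adjusted p 0.05003, just short of the threshold, and the call was also lost with no filter (0.0529) and in the authors' normalized table (0.0506, limma).

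Blk, a Src family kinase of B cells, went from 5.77 (array 6) through 10.02 to 10.20 and from 4.40 through 4.67 to 10.88 (array 7), a difference of -3.58 (adjusted p = 0.0726, limma; -1.99 without background correction). Btk, the kinase whose loss arrests B cell development, went from 6.81 (array 6) through 10.29 to 10.35 and from 5.33 through 5.87 to 10.91 (array 7), a difference of -2.92 (adjusted p = 0.0738, limma; -1.88 without background correction). Btk is also made in myeloid cells. Blnk, the adaptor that links Btk to phospholipase C, differed by -0.77 (95% confidence interval -1.72 to 0.18, adjusted p = 0.315). Blnk was at 8.26 and 8.12 on arrays 9 and 12, beside 6.35 to 7.49 on arrays 8, 10 and 11. On arrays 9 and 12 Dok3 was at 7.42 and 7.93, while Blk and Btk lay between 4.56 and 5.91.

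Transcription factors of the B lineage were measured for 4 of 6 listed genes, and none passed. Bach2, which holds back the plasma cell programme, went from 7.98 (array 6) through 9.75 to 10.55 in FVBN/APCmin and from 5.36 through 6.17 to 11.16 (array 7) in iPGC-1β/APCmin, a difference of -2.67 (adjusted p = 0.0756, limma; -1.68 without background correction). Mef2c, a factor of B cell activation that muscle and endothelium also use, went from 7.39 (array 6) through 10.20 to 10.77 and from 6.43 through 6.65 to 11.20 (array 7), a difference of -2.47 (adjusted p = 0.0865, limma). Mef2c was at 7.39 and 6.47 on arrays 6 and 8, where smooth muscle markers were highest.

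Pou2af1 encodes OBF-1, the coactivator that B cells add to octamer-binding factors. It went from 7.64 (array 6) through 10.87 to 11.57 in FVBN/APCmin and from 5.71 through 6.79 to 12.67 (array 7) in iPGC-1β/APCmin. Array 7 was the highest, with a raw intensity of 5300.6 against at most 3190.9 on any other array. The difference was -2.67 (SE 1.02, adjusted p = 0.140, limma). Ebf1, the factor that opens the B cell programme, went from 5.43 (array 6) through 7.05 to 7.64 and from 4.90 through 5.15 to 8.00 (array 7), a difference of -1.27 (adjusted p = 0.156, limma; -0.46 without background correction). Pax5, which commits cells to the lineage, was detected on 0 of 12 arrays, with raw intensities of 114.5 to 150.2, so this probe gave no reading of it.

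Since genes for OBF-1 and EBF1 are among the members, their DNA motifs were looked for in the promoters of the set. RefSeq (GRCm38.p6) windows from 250 bases before to 50 after a gene's start matched 29 of the 36 genes, in 36 windows. The octamer ATGCAAAT (on either strand) stood in windows of 2 of these 29 genes (6.90%) and of 1.97% of all 27025 genes. The EBF1 palindrome (TCCC and GGGA parted by 2 bases, the same on both strands) stood in 1 of the 29 (3.45%) and in 1.06% of all genes. The 3 windows with a match follow, 5′ to 3′ on the strand of the gene with the match in capitals, together with that of Fcmr, the gene with the largest difference, which held neither motif. Relative to the start used for each window, the octamer lies at -45 in Vpreb3 and at -130 in Blnk, in both on the opposite strand, and the palindrome at -49 in Cd22. For Vpreb3 and Cd22 this start lies inside the span of the gene, and for Blnk and Fcmr at its edge.
Vpreb3 (chr10:75948050-75948349, plus strand): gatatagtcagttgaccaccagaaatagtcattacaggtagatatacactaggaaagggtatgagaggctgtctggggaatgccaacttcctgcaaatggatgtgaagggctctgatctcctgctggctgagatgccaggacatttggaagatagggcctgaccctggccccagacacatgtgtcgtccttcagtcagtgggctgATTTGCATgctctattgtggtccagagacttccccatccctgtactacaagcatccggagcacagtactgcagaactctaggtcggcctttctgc
Blnk (chr19:40994172-40994471, minus strand): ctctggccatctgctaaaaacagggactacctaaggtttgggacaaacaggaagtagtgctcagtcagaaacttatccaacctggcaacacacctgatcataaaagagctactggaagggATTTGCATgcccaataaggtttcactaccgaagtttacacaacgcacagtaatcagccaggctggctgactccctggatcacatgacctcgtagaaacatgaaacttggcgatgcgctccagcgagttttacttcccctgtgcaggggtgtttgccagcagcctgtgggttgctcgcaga
Cd22 (chr7:30878979-30879278, minus strand): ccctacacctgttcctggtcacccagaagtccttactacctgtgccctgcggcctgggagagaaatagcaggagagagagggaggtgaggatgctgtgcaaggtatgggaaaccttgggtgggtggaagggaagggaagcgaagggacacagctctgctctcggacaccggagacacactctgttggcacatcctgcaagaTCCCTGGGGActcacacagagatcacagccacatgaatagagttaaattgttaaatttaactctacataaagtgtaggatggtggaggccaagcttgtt
Fcmr (chr1:130865527-130865826, plus strand): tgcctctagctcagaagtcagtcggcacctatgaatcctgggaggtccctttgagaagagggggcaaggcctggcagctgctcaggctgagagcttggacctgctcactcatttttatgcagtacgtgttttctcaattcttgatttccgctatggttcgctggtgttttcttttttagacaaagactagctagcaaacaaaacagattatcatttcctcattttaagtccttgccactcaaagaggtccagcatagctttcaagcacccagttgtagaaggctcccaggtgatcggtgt
Vpreb3 and Blnk, which share the octamer, had similar mean log2 levels in FVBN/APCmin (8.52 and 8.53). Their differences between the groups were -2.33 and -0.77, and whether these differ from each other was not tested.

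Germinal centre genes were measured for 3 of 4 listed, and none passed. Fcrla, an Fc receptor-like protein inside germinal centre B cells, went from 6.75 (array 6) through 9.99 to 10.81 in FVBN/APCmin and from 4.57 through 4.98 to 11.25 (array 7) in iPGC-1β/APCmin, a difference of -3.58 (SE 1.03, adjusted p = 0.0646, limma). It was -2.01 without background correction. Swap70, a signalling protein of activated B cells that other cells also make, went from 8.86 (array 6) through 10.59 to 10.83 and from 8.11 through 8.28 to 11.57 (array 7), a difference of -1.55 (adjusted p = 0.117, limma). Bcl6, the repressor that sets up the germinal centre, went from 8.82 (array 6) through 9.80 to 10.42 and from 8.12 through 8.60 to 10.93 (array 7), a difference of -0.81 (95% confidence interval -1.71 to 0.09, adjusted p = 0.267). Both Bcl6 and Swap70 were detected on all 12 arrays. Rgs13, which tunes chemokine responses of germinal centre B cells, was detected on 0 of 12 arrays.

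Plasma cell genes were measured for 2 of 5 listed, and they differed from each other in pattern. Irf4, a factor that drives plasma cell formation and is also made by activated T cells, went from 6.54 (array 6) through 8.69 to 9.10 in FVBN/APCmin and from 4.97 through 6.40 to 9.27 (array 7) in iPGC-1β/APCmin, a difference of -1.88 (SE 0.63, adjusted p = 0.100, limma), or -1.02 without background correction. Array 6 was the lowest of its group and array 7 the highest of the 12, as in most B cell genes above. Jchain (Igj in the file), which joins IgA and IgM into polymers, was at 7.13, 8.19, 7.47, 8.18, 7.87 and 7.39 on arrays 1 to 6. On arrays 7 to 12 it was at 7.34, 6.24, 6.16, 6.28, 7.90 and 7.81. Array 7 ranked 8 of 12 for Jchain and array 6 ranked 7, so neither stood apart from its group, and arrays 11 and 12 lay inside the FVBN/APCmin range. The difference of Jchain was -0.75 (SE 0.35, 95% confidence interval -1.50 to 0.00, adjusted p = 0.218, limma), or -0.40 without background correction, and it passed in 0 of 12 fits that left out an array. Prdm1, which encodes Blimp-1 of plasma cells, was detected on at most 1 of 12 arrays with either of its probes, at raw intensities of 116.5 to 154.9.

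Spn, which encodes leukosialin, a protein of T cells and plasma cells that follicular B cells lack, differed by 0.11 (95% confidence interval -0.35 to 0.58, adjusted p = 0.792, limma). It ran from 4.64 to 5.72 in FVBN/APCmin and from 4.70 to 5.61 in iPGC-1β/APCmin and was detected on only 4 arrays, so a difference below the detection limit could not be seen. Beyond the probe used for each gene, 16 other probes of 9 members passed the filter, and all 16 had the same sign as the probe used, from -4.19 to -0.41.

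Other genes of the pathway, in lists drawn up by known role, were read the same way. Among 20 tested genes of antigen receptor signalling 0 passed and 15 had an unadjusted p below 0.05, with 19 below 0 and a median of -0.90. The leading values were those of the kinase subunit gene Pik3cd (-1.79, adjusted p = 0.0588) and the phospholipase gene Plcg2 (-2.08, adjusted p = 0.0611, limma). Of 19 tested survival factors, chemokines and receptors of follicles, 1 passed: Ccr6, the receptor that brings B cells to the dome of Peyer's patches, fell by 4.28 (SE 1.02, adjusted p = 0.0390, limma), from 8.04 (array 6) to 11.62 in FVBN/APCmin and from 4.76 to 11.70 (array 7) in iPGC-1β/APCmin. Among fits that left out an array its call was kept only without array 6 or array 7. It was also lost with no background correction (-2.85, adjusted p = 0.0578), with no filter (adjusted p = 0.0518) and in the authors' normalized table (-2.75, adjusted p = 0.0592, limma). The lymphotoxin gene Ltb (-3.44, adjusted p = 0.0526) and Tnfrsf13c (-3.89, adjusted p = 0.0626, limma), which encodes the receptor for the B cell survival factor BAFF, did not pass.

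Of 15 other surface and transcription factor genes, 1 passed, Irf8, a factor of B cells, dendritic cells and macrophages, which fell by 1.36 (SE 0.29, adjusted p = 0.0259, limma) and kept its call without array 6, 7, 8 or 9 only. Ikzf1 (-1.91) and Cd86 (-1.83) did not pass. Among 9 further germinal centre genes 0 passed and 6 had an unadjusted p below 0.05. Icos (-1.63) and Il21 (-0.82), which helper T cells of the germinal centre use, and Lmo2 (-1.94) led these.

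Genes that serve plasma cells and immunoglobulin transport gave 3 of 14 past the threshold, all lower. Of the 14, 12 were below 0 and 2 above, with a median of -0.61, and the 3 that passed are not particular to plasma cells. Pigr, the epithelial receptor that carries polymeric IgA into the gut lumen, fell by 1.13 (SE 0.22, adjusted p = 0.0163, limma). On FVBN/APCmin arrays Pigr ran from 12.84 to 13.50 and on iPGC-1β/APCmin arrays from 11.63 to 12.94 (log2), with array 6 at 13.32 and array 7 at 12.94. Pigr passed in all 12 fits that left out an array. Xbp1, the factor of secretory cells including plasma cells and Paneth cells, fell by 0.65 (SE 0.16, adjusted p = 0.0423, limma), its iPGC-1β/APCmin arrays all lying below its FVBN/APCmin arrays (0.884% of all genes), and of the fits that left out an array kept its call without array 6, 7 or 9. It lost it under cyclic loess (adjusted p = 0.0536) and with no filter (adjusted p = 0.0811, limma). Itgb7, a chain of the gut-homing integrin of lymphocytes, fell by 2.35 (SE 0.58, adjusted p = 0.0443, limma), with its call kept, of the fits that left out an array, without array 6 or array 7. It lost it with no background correction (-1.41, adjusted p = 0.0503), with no filter (adjusted p = 0.0608) and in the authors' normalized table (-1.34, adjusted p = 0.0506, limma). Array 6 was low for Itgb7 (7.36) but not for Pigr or Xbp1.

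**Figure D4:**
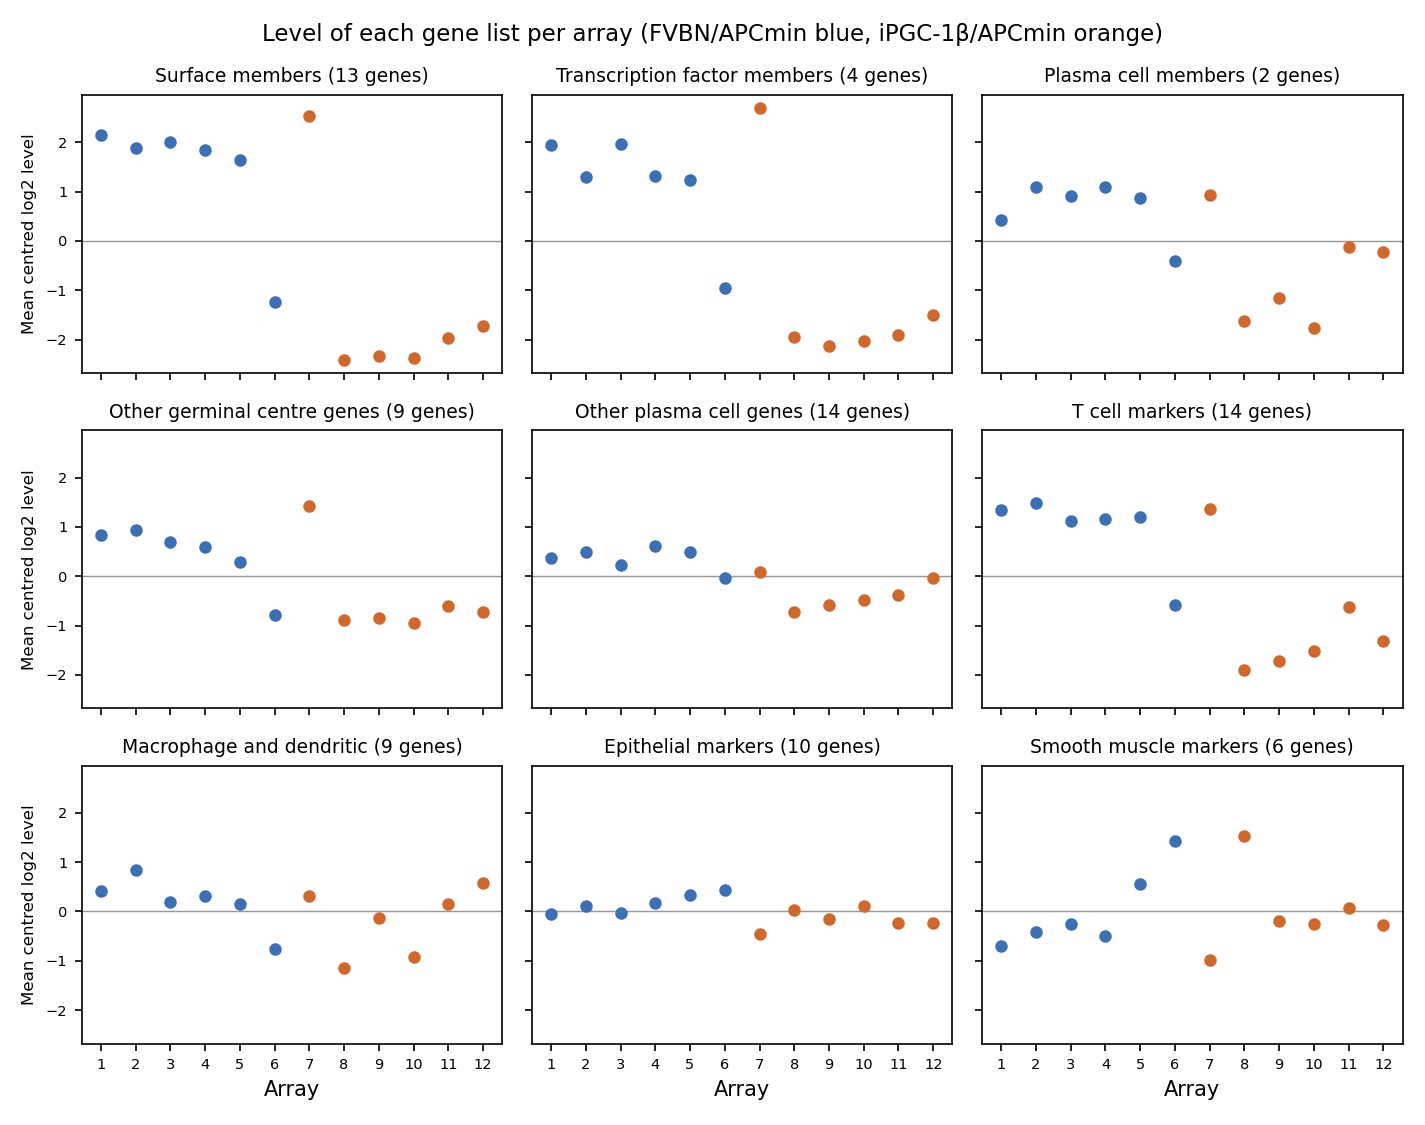
Each panel gives the mean centred log2 level of a gene list on arrays 1 to 12, FVBN/APCmin in blue and iPGC-1β/APCmin in orange. Surface members, transcription factor members, other germinal centre genes and T cell markers show array 6 low and array 7 high; epithelial markers span only -0.45 to 0.44.

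Markers of other cell types were set beside the B cell genes. Of 14 tested T cell markers 3 passed, all lower, with a median of -2.12: the adaptor gene Lat (-2.65, adjusted p = 0.0367), Cd8b1 (-2.12, adjusted p = 0.0443) and Cd3e (-2.31, adjusted p = 0.0492, limma). Each lost its call without any array other than 6 and 7, apart from Cd8b1, which also kept it without array 11. With no filter all 3 lost it (adjusted p = 0.0504, 0.0615 and 0.0669 in that order, limma). Cd3e also lost it with an offset of 50 (0.0529), no background correction (-1.59, 0.0579), the mean of all kept probes (0.0521), no intensity trend (0.0504) and the authors' normalized table (-1.53, 0.0588, adjusted p from limma). The T cell level was 1.12 to 1.48 on arrays 1 to 5, -0.59 on array 6, 1.36 on array 7 and -1.90 to -0.62 on arrays 8 to 12. With this level as a covariate 0 of the 27 B and plasma cell genes passed at either threshold, and their median difference was 0.26. In that fit 6 of all genes passed (0.0547%). The T cell level itself followed the groups apart from arrays 6 and 7, so the fit cannot fully part genotype from this level. With the covariate the standard error rose for Blnk (0.44 to 0.50), Jchain (0.35 to 0.46) and Spn (0.22 to 0.32). It fell for the other members, as for Fcmr (1.28 to 0.70) and Cd79b (1.10 to 0.49). Why the differences shrank was not tested.

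Of 6 tested markers of M cells and the epithelium over follicles, 1 passed. Tnfrsf11a, the receptor RANK through which M cells form, fell by 1.29 (SE 0.27, adjusted p = 0.0234, limma) and separated the groups, but lost its call without array 1, 2, 5 or 11. Gp2, the mature M cell receptor for bacteria, differed by -2.63 (adjusted p = 0.0510) with array 7 at 9.49, and Tnfaip2 by -0.81 (adjusted p = 0.240, limma). Of 9 macrophage and dendritic cell markers 0 passed (1 at an unadjusted p below 0.05, Lyz2 at -1.98), with Csf1r at -0.45 and Cd14 at 0.48. Of 10 epithelial markers 0 passed (4 at an unadjusted p below 0.05), with Cdx1 at -0.69, Vil1 at -0.75 and Krt19 at -0.68. Of 6 smooth muscle markers 0 passed at either threshold, with Myh11 at -0.34, Acta2 at -0.17 and Tagln at 0.22. The signs of Myh11 and Acta2 turned without arrays 6 and 7.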

How the data were processed

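RNA of 12 ileum tumours was labelled with biotin and hybridised to Illumina bead arrays, 6 per genotype. Deposited values before normalization are, per the file headers, mean bead intensity and its detection p-value on each array for each of 25697 probes. The authors' normalized table holds linear intensity, as read from its values. Per the submitters' processing notes GenomeStudio was used (version not given in the sources used here). Neither a chip nor a scan date is given in the sources used here, so no batch could be examined.

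The unnormalized intensities were processed with limma 3.58.1 in R 4.3.3: neqc (normal-exponential background with controls inferred from the detection p-values, offset 16, quantile normalization, log2), a detection filter (p-value under 0.05 on 4 or more arrays, 14827 probes), and the probe with the highest mean for each symbol (10967 genes). Groups were compared with lmFit and eBayes with an intensity trend, and p-values were adjusted over all genes (Benjamini-Hochberg, threshold 0.05). Levels of lists are means over their genes, each centred over the 12 arrays beforehand. On simulated data of 10967 genes with 200 changed, the fit for this comparison recovered 49.0% of changes of 1 and 91.8% of changes of 2 on the log2 scale. These rates describe the simulated data and do not carry over to the members, of which 2 of 27 passed at a median difference of -2.47. No pair of arrays shared more than 0.25% of identical raw values. The number of arrays limits the precision.

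Members, lists, tests and alternatives were chosen with earlier results of these data known. Values over arrays were given for members past the threshold, for the 6, 3 and 4 genes with the smallest p of the surface, signalling and transcription factor classes, and for every tested germinal centre and plasma cell gene. In the other lists the 3 genes with the smallest p were named, apart from 1 that is not reported here. Motifs were searched in RefSeq promoters of GRCm38.p6, and no probe coordinates were used.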

Additional observations from a re-analysis of the deposited data

Results flagged for a closer look

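In 40 of 54 comparisons of an array with the rest of its group (27 genes in 2 groups of 6), the gap from the most extreme array to its neighbour, as a share of the group's range, exceeded Dixon's 95% critical value. About 1 in 20 would do so by chance if arrays and genes were independent, and genes of 1 cell type are not. All 40 concern array 6 or array 7, which earlier results had already shown apart in lymphocyte genes. The share of such gaps over all genes is not given here, so the count is a description. Array 6 lay far below the other FVBN/APCmin arrays in 21 genes, with gaps of 0.744 for Cd79b, 0.777 for Cd22, 0.793 for Cd37, 0.733 for Ms4a1, 0.853 for Cr2, 0.791 for Fcer2a, 0.856 for Fcmr, 0.764 for Fcrl1, 0.734 for Cd180, 0.77 for Ly86, 0.791 for H2-Ob, 0.737 for Cd83, 0.743 for Vpreb3, 0.888 for Blk, 0.862 for Btk, 0.825 for Dok3, 0.724 for Pou2af1, 0.76 for Mef2c, 0.747 for Fcrla, 0.77 for Swap70 and 0.754 for Irf4. Array 7 lay far above the other iPGC-1β/APCmin arrays in 19 genes, with gaps of 0.947 for Cd22, 0.911 for Cd37, 0.914 for Ms4a1, 0.939 for Cr2, 0.849 for Fcer2a, 0.89 for Fcmr, 0.867 for Fcrl1, 0.817 for Cd180, 0.846 for H2-Ob, 0.846 for Cd83, 0.872 for Blk, 0.763 for Btk, 0.719 for Dok3, 0.872 for Ebf1, 0.902 for Mef2c, 0.739 for Bach2, 0.749 for Bcl6, 0.883 for Fcrla and 0.914 for Swap70. Cd22, Cd37, Ms4a1, Cr2, Cd180 and H2-Ob were detected on 1 of 6 iPGC-1β/APCmin arrays. Their other values in that group lay close together at background, which enlarges the gap of array 7. Jchain, Spn and Blnk had no gap past the critical value in either group. The cause was not tested.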

How the results depend on the processing

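Against 378 of all genes and 2 of the 27 members past the threshold, leaving out a single array gave 129 to 1821 of all genes, 0 to 24 of the members, 18 to 26 members at an unadjusted p below 0.05 and a median difference of -3.23 to -2.26. Without arrays 6 and 7, 2184 of all genes and 25 members passed, and array quality weights gave 2403 and 25. Cyclic loess and the stricter filter gave 3 members each. With no filter 200 of all genes and 1 member passed (more genes tested). With no background correction, as with the authors' normalized table, 0 members passed, with medians of -1.35 and -1.27. With the T cell level as a covariate 6 of all genes and 0 members passed, 0 at an unadjusted p below 0.05, the median turned to 0.26, and each call named in the text was lost. Lat, Cd8b1 and Cd3e are themselves part of that level, so the loss of their calls was largely built in and shows nothing about them. In that fit the sign of these log2 differences turned, none past the threshold: Cd79b 0.20, Cd22 0.30, Ms4a1 0.65, Cr2 0.69, Fcer2a 0.08, Fcrl1 0.38, Cd180 0.67, Ly86 0.49, H2-Ob 0.04, Cd83 0.09, Vpreb3 0.22, Blk 0.24, Blnk 0.26, Btk 0.32, Ebf1 0.45, Pou2af1 0.94, Mef2c 0.38, Bcl6 0.46, Fcrla 0.10, Swap70 0.33, Irf4 0.31, Cd86 0.56, Tnfrsf13c 0.02, Icos 0.03, Lmo2 0.66, Il21 0.18, Tnfaip2 0.40, Lyz2 0.92, Csf1r 0.45, Tagln -1.06. Without arrays 6 and 7 Myh11 was at 0.08 and Acta2 at 0.11, and with single arrays left out Acta2 ran from -0.39 to 0.01 and Tagln from -0.02 to 0.56. The cause of these shifts was not tested. No paired analysis was possible because the numbers in the labels run on from 1 to 12 and no number is shared between the groups. Probes near background limit what the differences of dim genes can show.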

Other observations

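Within the arrays low in B cell genes, the remaining signal was not spread evenly. Of arrays 8 to 12, array 12 was the highest for 12 of the 27 genes and array 11 for 9. The share over all genes is not given for this count. Only 18 of the 27 genes were detected on array 12 and 16 on array 11, so some of these ranks compare background. The antigen receptor chain gene Cd79b was at 8.29 on array 12 and 7.27 on array 11, beside 5.79 to 5.96 on arrays 8 to 10. Pou2af1 was at 8.40 and 7.14, beside 5.71 to 6.44. Vpreb3 was at 7.38 and 6.39, beside 4.76 to 4.83. Jchain was at 7.81 and 7.90, beside 6.16 to 6.28. Bach2, which restrains plasma cell formation, was at 6.01 on array 12, inside the 5.91 to 6.88 of arrays 8 to 10. On array 11 it was at 5.36, below that range. Swap70 was lower on arrays 12 and 11 (8.11 and 8.16) than on arrays 8 to 10 (8.21 to 8.41). The macrophage and dendritic cell level was likewise highest on arrays 12 and 11 among arrays 8 to 12, at 0.57 and 0.16. These arrays were picked after their values were seen, so the values are a description.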
